A study of Homo sapiens with 36 samples.

Results

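The MAPK phosphatases and the Sprouty and SPRED proteins switch off signalling through mitogen-activated protein kinases (MAPKs), and their transcripts were measured in A549 lung cancer cells exposed to interleukin-1β (IL-1β) and after its withdrawal. The 10 genes described were DUSP1, DUSP4, DUSP5, DUSP6, DUSP10, SPRY1, SPRY2, SPRY4, SPRED1 and SPRED2 and were chosen by symbol through the Ensembl identifiers of the count tables (10 of 63677 genes listed). A549 is an established human non-small cell lung cancer line of epithelial origin. Cells were cultured in serum-containing medium with IL-1β at 1 ng/ml and collected at day 6, day 15 and day 21, and after 21 days of exposure other cells were kept without the cytokine and collected at day 6, day 15 and day 30 after withdrawal. Untreated control cells were collected beside each of these 6 time points, which gave 12 groups of 3 replicates and 36 mRNA libraries. The cells are 1 line in culture, and the labels call the replicates biological without saying whether they came from separate cultures, so p-values measure the spread between these samples.

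A receptor that activates RAS passes its signal through RAF and MEK kinases to the MAPK ERK, while IL-1β also activates the stress MAPKs JNK and p38. The dual specificity phosphatases (DUSPs) remove phosphate from MAPKs, with DUSP1 acting on all 3 kinase classes, DUSP5 and DUSP6 acting mainly on ERK, and DUSP10 acting mainly on JNK and p38. Sprouty proteins act upstream, between receptor and RAF, and SPRED proteins bring the RAS inhibitor neurofibromin to the membrane. Many of these genes are themselves transcribed in response to ERK activity, so they are known as feedback inhibitors.

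The libraries held 9116032 to 23570026 counts on genes, and all 10 genes passed the filter on low counts that left 19180 genes for testing. The mitochondrial share of the counts lay at 11.8% to 24.6% in 11 libraries (6 control, 5 IL-1β, 8 of the 11 from the period after withdrawal, 8 of the 11 of replicate 2) and at 5.61% to 7.75% in the remaining 25. Levels below are in CPM, the count of a gene divided by the library's total in units of 1e+06, scaled between libraries by edgeR's TMM factors. In RNA from whole cultures, fewer cells of a kind and less RNA per cell cannot be told apart. The epithelial markers KRT8 (538 to 4818 CPM), KRT18 (265 to 2514 CPM) and CDH1 (27.5 to 319 CPM) were present in every library, while EPCAM stood at 0.232 to 1.63 CPM and KRT19 at no more than 4 counts. Summed over the 5 epithelial markers, the level ran from 2901 to 7624 CPM in controls (median 5122) and from 899 to 5142 CPM in IL-1β libraries (median 1735), and the part of this shift in the results below was not tested. The lymphocyte gene CD3E was at 0 counts in all 36 libraries, and PTPRC, CDH5 and KDR never passed 3 counts. CD14, listed as an immune marker, was present in every library at 1.67 to 16.4 CPM, as was the fibroblast marker COL1A1 at 0.798 to 3.44 CPM, while DCN and PDGFRA never passed 9 counts. The part of these transcripts in the results was not tested.

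The 10 transcripts spanned a wide range of abundance. Set per kilobase of exon, the scale on which the members were compared with each other, DUSP1 was the most abundant, with a median of 158 CPM per kb over the 18 control libraries (90.5 to 227). DUSP4 followed at 15.0 CPM per kb (12.4 to 21.7) and DUSP5 at 10.2 (5.48 to 13.7), and these ranges overlapped each other and, for DUSP5, that of SPRED2 at 7.24 (6.29 to 9.32). SPRED1 stood apart below them at 4.12 CPM per kb (3.46 to 5.01). The remaining members were low, with DUSP6 at 1.15 CPM per kb (0.900 to 1.76), SPRY2 at 1.01 (0.601 to 1.30), DUSP10 at 0.467 (0.167 to 0.831), SPRY1 at 0.435 (0.205 to 0.841) and SPRY4 at 0.374 (0.186 to 0.521), and each of these ranges overlapped its neighbour. SPRY4, whose response to IL-1β was the largest in the mean of the 10, thus had the lowest median in untreated cells, within the range of SPRY1 and DUSP10.

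**Figure D1:**
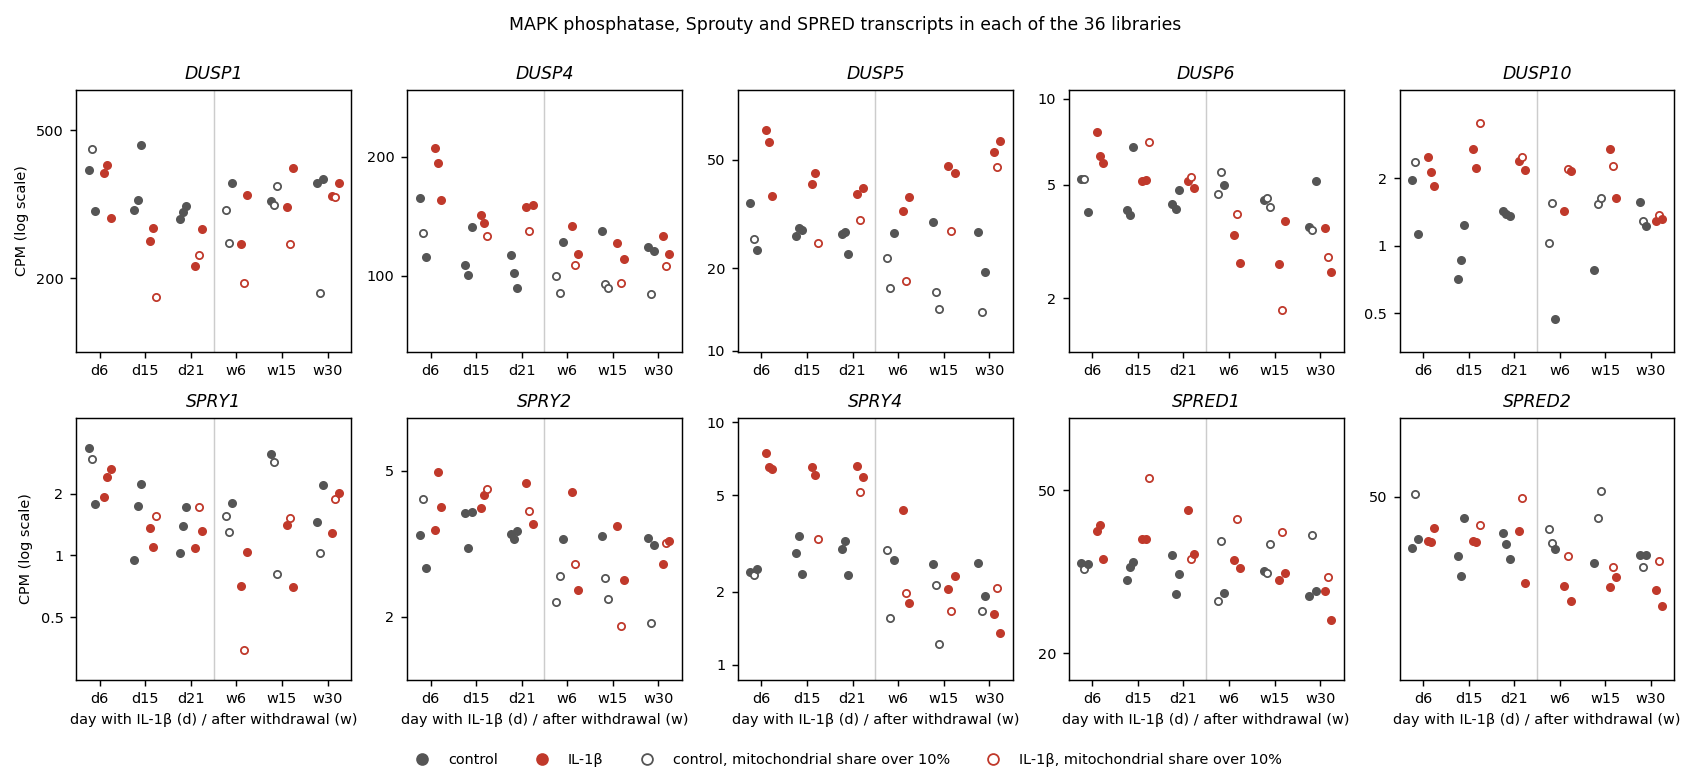
Level of each of the 10 transcripts in every library, in CPM on a log axis, at days 6, 15 and 21 with IL-1β (d) and days 6, 15 and 30 after its withdrawal (w). Grey points are control and red points IL-1β libraries, open points are the 11 libraries with over 10% mitochondrial counts, and SPRY4 shows all 3 red points above the grey ones at d6 and d21 but not after withdrawal.

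To ask whether the feedback inhibitors followed IL-1β, edgeR's quasi-likelihood F-test set each time point against its own control, with Benjamini-Hochberg adjustment over all 19180 genes. A gene was called when its adjusted p was under 0.05 and its fold change over 2. Of the 60 pairs of a member and a time point, 4 were called, all higher with IL-1β, and they belonged to 3 members: SPRY4 at day 6 and day 21, DUSP10 at day 15, and DUSP5 at day 30 after withdrawal. Over all tested genes, 6.32% were called at 1 or more of the 6 time points, and the other 7 members never were. With 1 member called at each of day 6, day 15 and day 21, the background was 2.77%, 4.24% and 4.26% of all tested genes. At day 6, day 15 and day 30 after withdrawal it was 1.8%, 0.954% and 0.897%, with 0, 0 and 1 member called. At the first 2 of these, 3 (1 higher, 2 lower) and 5 (2 higher, 3 lower) of the 10 members had an unadjusted p under 0.05 (edgeR), and DESeq2 also called 0. The share of all tested genes with such an unadjusted p is not given here or below.

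The number of calls changed with the libraries used. The 4 called pairs became 6 without the 11 libraries of high mitochondrial share, 2 when each time point was fitted alone, 2 without replicate 2 or replicate 3 and 0 without replicate 1.

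**Figure D2:**
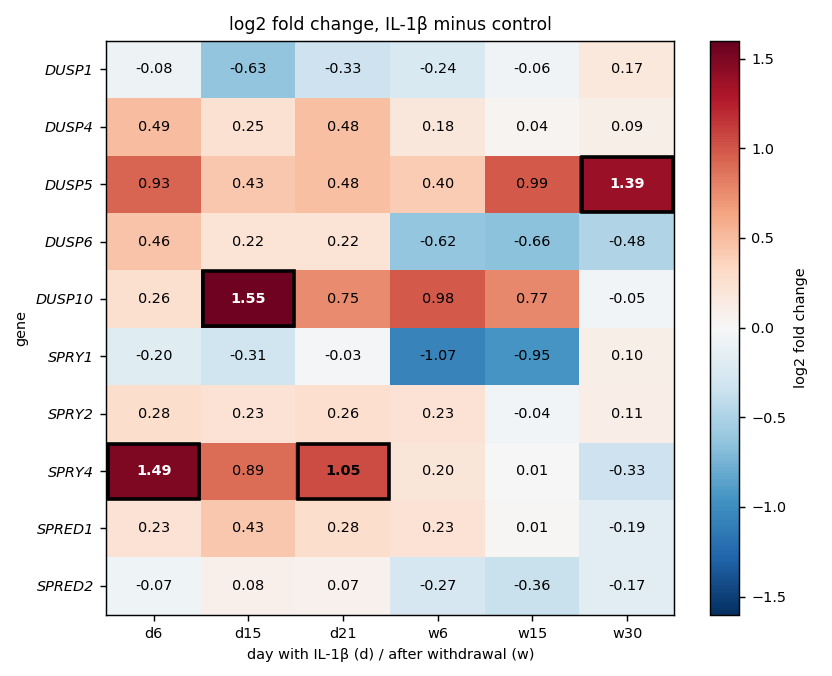
Log2 fold change of each of the 10 genes (rows) at the 6 time points (columns), IL-1β minus control, in red where higher and blue where lower. The 4 black frames mark called values, from 1.05 for SPRY4 at day 21 to 1.55 for DUSP10 at day 15, and the columns after withdrawal hold the lowest values, for SPRY1 and DUSP6.

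Below those thresholds most members leaned upward while IL-1β was present. The members' median log2 fold change was 0.27, 0.24 and 0.27 at day 6, day 15 and day 21, beside -0.02, -0.02 and -0.01 over all tested genes. After withdrawal it was 0.19, -0.01 and 0.02, beside 0.00, 0.02 and 0.00. Counting genes whose 3 IL-1β libraries all lay above the 3 controls gave 4, 3 and 6 of the 10 members at day 6, day 15 and day 21, where 10.6%, 11.5% and 13.8% of all tested genes did so. At day 21 these were DUSP4, DUSP5, DUSP6, DUSP10, SPRY2 and SPRY4. DUSP1 alone lay wholly below its controls, at day 15 and day 21. The share of all genes in that direction is not given for these days. After withdrawal 0, 1 and 1 members lay wholly above their controls, beside 5.51%, 6.02% and 6.78% of all tested genes. In the other direction 3, 2 and 0 members lay wholly below, beside 5.24%, 4.9% and 5.11%.

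SPRY4 (ENSG00000187678, chr5:141689992-141706020 on the minus strand, GRCh37) encodes a Sprouty protein that restrains RAS activation, and it gave the largest mean rise of the 10 genes with IL-1β. At day 6 it measured 2.42, 2.35 and 2.48 CPM in the 3 control libraries. In the 3 IL-1β libraries of that day it measured 7.45, 6.58 and 6.43 CPM. The groups were far apart, and SPRY4 was 2.81-fold higher with IL-1β (log2 fold change 1.49, SE 0.30, edgeR adjusted p = 0.00216), a call that was lost without replicate 1 (1.44, edgeR adjusted p = 0.098).

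At day 15 SPRY4 measured 2.90, 3.41 and 2.37 CPM in controls and 6.56, 6.10 and 3.31 CPM with IL-1β. The IL-1β replicate 3 library, 15.3% of whose counts were mitochondrial, fell within the control range, and the difference was not called (0.89, SE 0.30, edgeR adjusted p = 0.0725). Without the libraries of high mitochondrial share it was (1.13, edgeR adjusted p = 0.00343). At day 21 controls measured 3.02, 3.26 and 2.35 CPM and IL-1β libraries 6.63, 5.17 and 5.95 CPM. The groups were again separate, with a log2 fold change of 1.05 (SE 0.30, edgeR adjusted p = 0.027), which was lost without any 1 of the replicates (0.91 to 1.23, edgeR adjusted p = 0.0868 to 0.317) and with no filter on low counts (1.06, edgeR adjusted p = 0.0613).

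After withdrawal no SPRY4 difference was called. At day 6 controls measured 2.97, 1.55 and 2.71 CPM and previously exposed cells 4.37, 1.97 and 1.80 CPM, so that only replicate 1 lay above its controls. At day 30 the values were 2.64, 1.67 and 1.92 CPM in controls and 1.63, 2.08 and 1.36 CPM in previously exposed cells. The log2 fold changes were 0.20 (SE 0.31), 0.01 (SE 0.32) and -0.33 (SE 0.32) at day 6, day 15 and day 30 after withdrawal, with overlapping groups and edgeR adjusted p between 0.835 and 1.

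**Figure D3:**
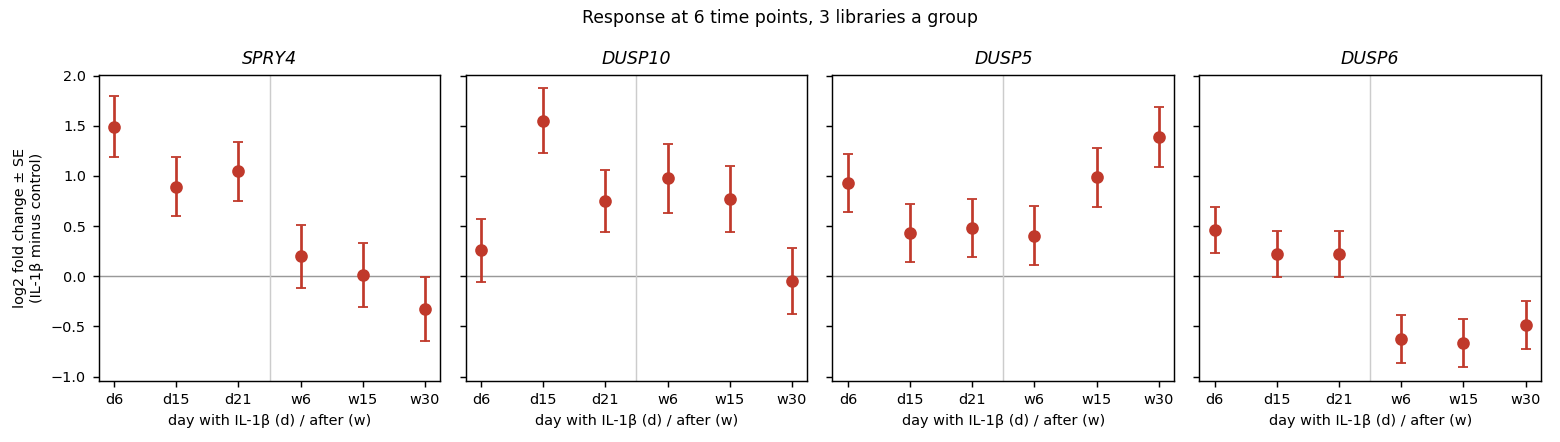
Log2 fold change (IL-1β minus control) of SPRY4, DUSP10, DUSP5 and DUSP6 at days 6, 15 and 21 with IL-1β (d) and days 6, 15 and 30 after withdrawal (w), where points are fitted values and bars are 1 SE. SPRY4 stands at 1.49 at d6 and at -0.33 at w30, DUSP5 reaches 1.39 at w30, and DUSP6 lies above 0 at all 3 d points and below 0 at all 3 w points.

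SPRY2 and SPRY1, its relatives, were not called at any time point. SPRY2 (ENSG00000136158, chr13:80910111-80915261, minus strand, GRCh37) ran from 1.93 to 4.18 CPM in controls and from 1.89 to 4.97 CPM in IL-1β libraries. Its log2 fold changes lay between 0.23 and 0.28 on the 3 days of exposure and between -0.04 and 0.23 after withdrawal, none of them called. The groups were nevertheless separate at day 15, with 3.84, 3.09 and 3.86 CPM in controls against 3.96, 4.30 and 4.45 CPM, and at day 21. SPRY1 (ENSG00000164056, chr4:124317950-124324915, plus strand, GRCh37) was measured by only 3 to 54 counts per library, which limits its precision. At day 6 after withdrawal it measured 1.55, 1.30 and 1.80 CPM in controls and 0.710, 0.348 and 1.04 CPM in previously exposed cells. All previously exposed libraries lay below the controls, and the difference was not called (log2 fold change -1.07, SE 0.44, edgeR adjusted p = 0.314).

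SPRED1 (ENSG00000166068, chr15:38545037-38649450, plus strand, GRCh37), whose loss in the germline causes a RAS-pathway syndrome, was 0.31 higher on the log2 scale in the mean of the 3 time points with IL-1β (SE 0.10, edgeR adjusted p = 0.0259), a change well under 2-fold. At day 15 it measured 30.2, 32.6 and 33.5 CPM in controls and 38.06, 38.05 and 53.6 CPM with IL-1β, and the groups did not overlap. The value of 53.6 CPM came from the replicate 3 library, 15.3% of whose counts were mitochondrial. After withdrawal the mean log2 difference of SPRED1 was 0.02 (SE 0.10). SPRED2 (ENSG00000198369, chr2:65537985-65659771, minus strand, GRCh37) differed by 0.03 (SE 0.08) with IL-1β and by -0.27 after withdrawal (SE 0.08, edgeR adjusted p = 0.0348). At day 6 after withdrawal it measured 43.1, 40.3 and 39.4 CPM in controls against 33.2, 38.03 and 31.0 CPM. These previously exposed cells lay below all controls, as they did at day 15 after withdrawal but not at day 30.

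Among the phosphatases of the nucleus, DUSP1 was the most abundant, and its sign was lower at all 3 time points with IL-1β, although at day 6 the log2 fold change was 0.07 without the libraries of high mitochondrial share. DUSP1 (ENSG00000120129, chr5:172195099-172198198, minus strand, GRCh37) is an early response gene that dephosphorylates p38, JNK and ERK. At day 15 it measured 306, 325 and 458 CPM in controls and 253, 272 and 178 CPM with IL-1β. The value of 178 CPM came from the replicate 3 library, 15.3% of whose counts were mitochondrial. At day 21 the values were 289, 301 and 313 CPM in controls and 216, 231 and 271 CPM with IL-1β. On both days the IL-1β libraries were all below the controls, yet neither difference was called (log2 fold change -0.63, SE 0.23, edgeR adjusted p = 0.123 and -0.33, SE 0.23, edgeR adjusted p = 0.716). Its mean difference was -0.35 with IL-1β (SE 0.13, edgeR adjusted p = 0.0881) and -0.04 after withdrawal (SE 0.13).

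DUSP4 (ENSG00000120875, on chromosome 8) is a nuclear phosphatase of ERK and JNK. At day 21 it measured 113, 102 and 93.3 CPM in controls and 149, 130 and 151 CPM with IL-1β, and the groups did not overlap. At day 6 they did, with 158, 128 and 112 CPM against 210, 193 and 155 CPM. Its mean log2 fold change was 0.41 with IL-1β (SE 0.09, edgeR adjusted p = 0.00186), a 1.33-fold rise, and 0.10 after withdrawal (SE 0.09, edgeR adjusted p = 0.58).

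DUSP5 (ENSG00000138166, chr10:112257665-112271291, plus strand, GRCh37) anchors and inactivates ERK in the nucleus, and it was the member whose difference was largest at the last collection. At day 6 with IL-1β it measured 34.7, 25.6 and 23.3 CPM in controls and 64.2, 58.0 and 36.9 CPM in exposed cells. At day 30 after withdrawal it measured 27.2, 13.9 and 19.4 CPM in controls and 53.5, 47.1 and 58.6 CPM in previously exposed cells. The groups were separate on both days, and the later difference was called, at 2.61-fold (log2 fold change 1.39, SE 0.30, edgeR adjusted p = 0.012).

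That call did not survive without replicate 1, replicate 2 or replicate 3 (1.26 to 1.64, edgeR adjusted p = 0.12 to 0.184) or in a fit of that time point alone (1.37, edgeR adjusted p = 0.319). It was kept without the libraries of high mitochondrial share (1.27, edgeR adjusted p = 0.00267). Of the controls at day 15 after withdrawal, replicates 2 and 3 had 24.6% and 22.4% of counts on mitochondrial genes and measured 16.4 and 14.2 CPM, beside 29.5 CPM in replicate 1. Previously exposed cells measured 47.5, 27.5 and 44.8 CPM, and the difference of 0.99 (SE 0.29, edgeR adjusted p = 0.108) became 0.65 without the libraries of high mitochondrial share, where 1 control library was left. With the replicate number as a block it was 1.00 and called (edgeR adjusted p = 0.042). The differences were smaller at day 15 and day 21 with IL-1β and at day 6 after withdrawal. They were 0.43, 0.48 and 0.40, none called (edgeR adjusted p = 0.474, 0.573 and 0.884). Averaged over time points, DUSP5 was higher both with IL-1β (0.61, SE 0.17, edgeR adjusted p = 0.00996) and after withdrawal (0.93, SE 0.17, edgeR adjusted p = 0.000358). The difference between these means was not called (0.31, SE 0.24, edgeR adjusted p = 0.623).

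DUSP6 (ENSG00000139318, chr12:89741012-89746278, minus strand, GRCh37) encodes the cytoplasmic ERK phosphatase and is widely read as a marker of ERK activity. At day 6 with IL-1β it measured 5.23, 5.22 and 4.02 CPM in controls and 7.66, 6.29 and 5.94 CPM in exposed cells, with all exposed libraries higher. At day 6 after withdrawal the order was the opposite, at 4.64, 5.53 and 4.98 CPM in controls and 3.33, 3.94 and 2.66 CPM in previously exposed cells. At day 15 after withdrawal controls measured 4.42, 4.49 and 4.16 CPM and previously exposed cells 2.63, 1.82 and 3.73 CPM, again without overlap. By day 30 after withdrawal the groups touched, with 3.55, 3.47 and 5.16 CPM against 3.53, 2.80 and 2.48 CPM.

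No single time point was called for DUSP6, which was measured by 25 to 137 counts per library. Its mean log2 fold change was 0.30 with IL-1β (SE 0.13, edgeR adjusted p = 0.15) and -0.59 after withdrawal (SE 0.14, edgeR adjusted p = 0.00482). Another gene on the opposite strand overlaps 28.6% of the DUSP6 exons in the annotation. The library kit keeps the strand, but the strand setting of the counting was not given in the sources used here.

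DUSP10 (ENSG00000143507, chr1:221874766-221915431, minus strand, GRCh37) acts on JNK and p38 and lies outside the ERK branch. At day 15 with IL-1β it measured 0.710, 0.867 and 1.24 CPM in controls and 2.70, 2.21 and 3.52 CPM in exposed cells. The value of 3.52 CPM came from the replicate 3 library, 15.3% of whose counts were mitochondrial. The groups were clearly apart, and DUSP10 was 2.93-fold higher (log2 fold change 1.55, SE 0.32, edgeR adjusted p = 0.00188). This call was lost without replicate 1 (1.44, edgeR adjusted p = 0.172) and in a fit of that time point alone (1.58, edgeR adjusted p = 0.0559).

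At day 21 DUSP10 measured 1.42, 1.39 and 1.35 CPM in controls and 2.39, 2.47 and 2.18 CPM with IL-1β. Here too the groups did not overlap, with a log2 fold change of 0.75 (SE 0.31, edgeR adjusted p = 0.209). At day 6 with IL-1β the difference was 0.26 (SE 0.31). The values after withdrawal were 0.98, 0.77 and -0.05 in order of time, none called. The value at day 6 after withdrawal rose to 1.91 without the libraries of high mitochondrial share, where it was called (edgeR adjusted p = 0.0228), with 1 control library left. Across the 3 time points with IL-1β, DUSP10 was 1.81-fold higher (0.85, SE 0.18, edgeR adjusted p = 0.000874), a gene measured by 8 to 54 counts per library.

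The sequence upstream of the transcription start is shown for SPRY4 and DUSP10, which rose with IL-1β, for DUSP6, which was higher in sign with IL-1β and lower after it, and for DUSP1, the abundant early response gene. Each line gives the 250 bases before an annotated start, read 5′ to 3′ on the minus strand, from RefSeq on GRCh38.p14, which is not the build of the counts. The windows are chr5:142324248-142324497 for SPRY4, chr1:221742090-221742339 for the upstream of the DUSP10 starts, chr12:89352502-89352751 for DUSP6 and chr5:172771196-172771445 for DUSP1. Capitals mark a match to a motif searched for on both strands.
SPRY4: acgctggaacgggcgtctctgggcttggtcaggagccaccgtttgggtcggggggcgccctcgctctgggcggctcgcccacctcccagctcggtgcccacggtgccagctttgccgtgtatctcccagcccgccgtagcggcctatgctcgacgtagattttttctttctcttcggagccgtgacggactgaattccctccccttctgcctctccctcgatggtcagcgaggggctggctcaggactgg
DUSP10: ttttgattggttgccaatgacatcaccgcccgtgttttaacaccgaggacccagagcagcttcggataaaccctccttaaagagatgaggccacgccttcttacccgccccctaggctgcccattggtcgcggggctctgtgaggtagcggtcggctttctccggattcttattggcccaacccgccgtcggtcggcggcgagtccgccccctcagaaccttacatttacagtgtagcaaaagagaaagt
DUSP6: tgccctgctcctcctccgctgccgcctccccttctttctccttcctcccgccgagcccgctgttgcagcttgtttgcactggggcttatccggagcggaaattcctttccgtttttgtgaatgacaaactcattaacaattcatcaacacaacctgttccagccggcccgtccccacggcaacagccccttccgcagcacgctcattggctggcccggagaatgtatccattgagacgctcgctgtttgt
DUSP1: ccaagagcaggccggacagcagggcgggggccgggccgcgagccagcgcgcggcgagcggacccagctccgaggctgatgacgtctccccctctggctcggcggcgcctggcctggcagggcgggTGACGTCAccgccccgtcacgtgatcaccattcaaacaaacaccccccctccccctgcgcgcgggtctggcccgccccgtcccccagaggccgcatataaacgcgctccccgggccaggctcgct

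The motifs were the AP-1 site TGANTCA, the cyclic AMP response element (CRE) TGACGTCA, the EGR site GCGTGGGCG, the ETS core CCGGAA, and the kappaB and CArG box consensus sequences, and no match of the AP-1 letters can also be a match of the CRE letters. Of 13 windows for 8 members, 3 held a match. The DUSP1 window held the CRE, 125 bases before the start, and 1.65% of 35116 promoter windows of the same length did. The ETS core was found 142 bases before a SPRY2 start and 67 bases before a SPRY1 start, in a motif that 14.5% of windows held. The windows of SPRY4, DUSP10 and DUSP6 held none of the 6 motifs, among them AP-1 (6.57% of all windows), kappaB (9.96%), CArG box (1.16%) and EGR (0.72%), which says only that these letters are not in these windows. DUSP4 and DUSP5 were not included.

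To compare the response with IL-1β to that after withdrawal, the mean log2 fold change of the last 3 time points was set against that of the first 3 in the same fit. With IL-1β, 1 member was called (SPRY4) where 5.54% of all tested genes were, and 5 had an adjusted p under 0.05 whatever the fold (DUSP4, DUSP5, DUSP10, SPRY4 and SPRED1, all higher) where 15.3% of all genes did. Without replicate 1 the edgeR adjusted p was 0.12 for DUSP5, 0.075 for DUSP10 and 0.275 for SPRED1, and without replicate 3 it was 0.154 for SPRED1, while DUSP4 and SPRY4 stayed under 0.05 without each replicate. After withdrawal none was called (background 2.39%) by edgeR or DESeq2, 5 had an unadjusted p under 0.05 (2 higher, 3 lower), and 3 had an edgeR adjusted p under 0.05 (background 7.71%). Those 3 were DUSP5, which was higher, and DUSP6 and SPRED2, which were lower. DUSP5 stayed under 0.05 without each replicate. The edgeR adjusted p of DUSP6 was 0.118 without replicate 1, 0.0778 without replicate 2 and 0.0555 once the 11 libraries of high mitochondrial share were left out. That of SPRED2 was 0.433 without replicate 1, 0.309 without replicate 3 and 0.105 with those libraries left out.

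The difference between the means was called for SPRY4 (1.29% of all tested genes were), and had an adjusted p under 0.05 for SPRY4 and DUSP6 (2.33% of all genes). The mean SPRY4 response was 1.14 with IL-1β (SE 0.17, edgeR adjusted p = 9.98e-06) and -0.04 after withdrawal (SE 0.18, edgeR adjusted p = 0.93). Their difference was -1.18 (SE 0.25, edgeR adjusted p = 0.00569) and was -1.08 without replicate 1 (edgeR adjusted p = 0.26). For DUSP6 the difference was -0.89 (SE 0.19, edgeR adjusted p = 0.00629), between a mean of 0.30 that did not pass the test and one of -0.59. It was -0.97 without replicate 1 (edgeR adjusted p = 0.303) and -0.87 without replicate 2 (edgeR adjusted p = 0.108). No member was called for a difference between the responses at day 21 and day 6 (edgeR adjusted p of 1 throughout, 0 members at an unadjusted p under 0.05, 0 by DESeq2), where 0.0104% of all genes were called. The members' differences ran from -0.45 to 0.49 on the log2 scale, with SE from 0.19 to 0.55, so equal responses were not shown.

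**Figure D4:**
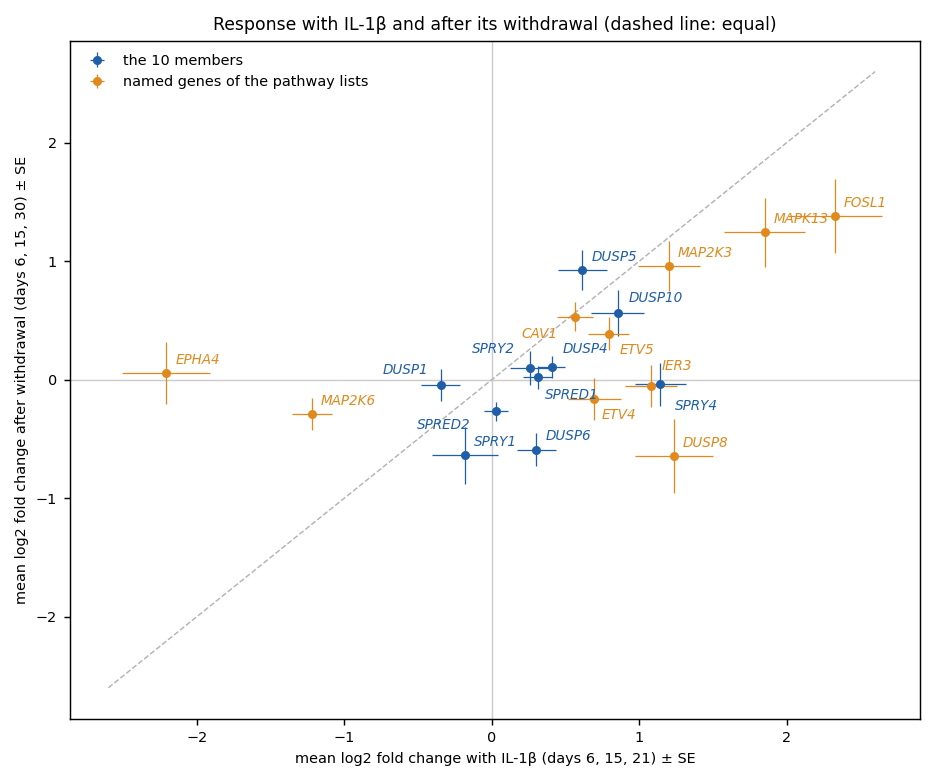
Mean log2 fold change with IL-1β (x axis) against that after withdrawal (y axis), with 1 SE on both, for the 10 members (blue) and 10 named genes of the pathway lists (orange). SPRY4 at 1.14 and IER3 at 1.08 lie on the horizontal line of no difference after withdrawal, DUSP5 lies near the dashed line of equal responses, and FOSL1 and MAPK13 are high on both axes.

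The 5 lists of pathway genes were laid beside the members, with 47 genes of which 46 were tested. Of the 30 calls of their named genes, 27 were also made without the libraries of high mitochondrial share, 7 without replicate 1, 12 without replicate 2 and 23 without replicate 3. The 6 made under every alternative were MAP2K6 at day 21 and the means with IL-1β of MAP2K6, MAP2K3, MAPK13, FOSL1 and EPHA4. Among the other MAPK phosphatases, Sprouty and SPRED genes, 1 of 6 tested (DUSP8, a phosphatase of JNK and p38) was called at day 21 and in the mean with IL-1β. Of all tested genes, 4.26% and 5.54% were called there. DUSP8 measured 0.912, 0.905 and 0.797 CPM in controls at day 21 and 2.77, 3.29 and 2.42 CPM with IL-1β. The groups were separate, at a log2 fold change of 1.69 (SE 0.46, edgeR adjusted p = 0.0206). That call was lost without each of the replicates (edgeR adjusted p up to 0.396). After withdrawal its mean difference was -0.65 (SE 0.31, edgeR adjusted p = 0.27). DUSP16 (0.57, SE 0.13, edgeR adjusted p = 0.00146) and SPRY3 (0.65, SE 0.21, edgeR adjusted p = 0.0282), named after their values were seen, were higher in the mean with IL-1β at under 2-fold. Of the 6 tested genes, 4 were higher and 2 lower in sign in that mean, with the lowest at -0.97. In the lower direction, 1 had an unadjusted p under 0.05 (edgeR). The list's median in that mean was 0.54, beside -0.01 over all genes. DUSP2 was not tested, as it had no count in 33 libraries.

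None of the kinases from RAS to ERK was called. Of 10 genes, 0 were called at any time point or in either mean by edgeR or DESeq2, and 1 had an unadjusted p under 0.05 in the mean with IL-1β and 1 in that after withdrawal. The latter was MAP2K1, a MEK kinase named after its values were seen, which was 0.43 higher on the log2 scale (SE 0.12, edgeR adjusted p = 0.0154). The list's median log2 fold change was 0.06 in the mean with IL-1β and 0.13 in that after withdrawal, beside -0.01 and 0.01 over all genes.

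In the JNK and p38 branch, 3 of 12 genes were called in the mean with IL-1β, where 5.54% of all tested genes were. The list's median was 0.10, beside -0.01 over all genes. MAP2K6, a kinase that activates p38, was lower at every time point with IL-1β. At day 21 it measured 8.77, 11.1 and 9.68 CPM in controls and 2.99, 4.27 and 3.41 CPM in exposed cells. The log2 fold changes were -1.06, -1.13 and -1.47 at day 6, day 15 and day 21 (mean -1.22, SE 0.13, edgeR adjusted p = 5.3e-08), and -0.29 in the mean after withdrawal (SE 0.13, edgeR adjusted p = 0.224).

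MAP2K3, the other p38-activating kinase, went the opposite way. At day 6 it measured 18.5, 13.7 and 26.0 CPM in controls and 46.4, 35.4 and 71.7 CPM with IL-1β, with a mean log2 fold change of 1.20 over the exposure (SE 0.21, edgeR adjusted p = 8.03e-05). After withdrawal the mean was 0.96 (SE 0.21, edgeR adjusted p = 0.00267), and the call at day 6 after withdrawal (1.31, edgeR adjusted p = 0.0498) was lost without the libraries of high mitochondrial share, where 1 control library was left (1.24, edgeR adjusted p = 0.141). It was also lost in a fit of that time point alone, without replicate 1 (0.89, edgeR adjusted p = 1.00) and without replicate 2 (1.34, edgeR adjusted p = 0.21). MAPK13, the delta form of p38, was higher with IL-1β (1.85, SE 0.28, edgeR adjusted p = 9.26e-06) and after withdrawal (1.24, SE 0.29, edgeR adjusted p = 0.00503), at 0.129 to 0.687 CPM in controls. The call after withdrawal was lost without the libraries of high mitochondrial share (0.996, edgeR adjusted p = 0.063) and without replicate 1 or replicate 2 (edgeR adjusted p up to 0.581).

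Of 10 transcripts commonly read as ERK output, 4 were called higher and 1 lower at day 6 with IL-1β, 1 higher and 1 lower at day 15 and 2 higher at day 21. Of all tested genes, 2.77%, 4.24% and 4.26% were called on these days in either direction. None was called at a time point after withdrawal (background 1.8%, 0.954% and 0.897%). There 1 (higher), 0 and 3 (2 higher, 1 lower) had an unadjusted p under 0.05 (edgeR), and DESeq2 called 1, 0 and 0. FOSL1, which encodes the AP-1 subunit FRA1, measured 13.1, 20.5 and 23.5 CPM in controls at day 6 and 80.7, 64.4 and 148 CPM with IL-1β. The exposed libraries were all higher, and the mean log2 fold change was 2.33 with IL-1β (SE 0.32, edgeR adjusted p = 1.93e-06) and 1.38 after withdrawal (SE 0.31, edgeR adjusted p = 0.00316). The call after withdrawal was lost without replicate 1 or replicate 2 (edgeR adjusted p up to 0.14).

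IER3, an early response gene, was higher with IL-1β (mean 1.08, SE 0.18, edgeR adjusted p = 2.89e-05) and differed by -0.05 after withdrawal (SE 0.18), beside 1.14 and -0.04 for SPRY4. The ETS factors ETV4 and ETV5 were called at day 6 with log2 fold changes of 1.21 (SE 0.31, edgeR adjusted p = 0.0188) and 1.06 (SE 0.24, edgeR adjusted p = 0.00663). Both calls were lost without each of the replicates (edgeR adjusted p up to 0.265 for ETV4 and 0.103 for ETV5, which was at 0.99 without replicate 3), and ETV5 also fell just under 2-fold with the mitochondrial share as a covariate. EPHA4, an ephrin receptor, was lower, with 4 counts summed over the IL-1β libraries at day 6 against 31 in controls, a ratio of 0.116 in depth-scaled counts (95% counting interval 0.0297 to 0.328). At day 15 the sums were 6 and 41 counts, with 26 of the 41 in 1 control library, and the ratio was 0.174 (0.0602 to 0.411). These intervals leave out the spread between libraries. The EPHA4 call at day 6 was lost without replicate 1 (edgeR adjusted p = 0.123). That at day 15 was lost without replicate 1 and without replicate 3 (edgeR adjusted p up to 0.137).

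Of 8 partners of the Sprouty and SPRED proteins, 0 were called in any comparison by edgeR or DESeq2. In the mean with IL-1β, 2 had an edgeR adjusted p under 0.05, where 15.3% of all tested genes did. CAV1, which encodes the membrane scaffold caveolin, was the most abundant in CPM, at 242 to 547 CPM in controls and 367 to 909 CPM in IL-1β libraries. It was 0.57 higher on the log2 scale with IL-1β (SE 0.12, edgeR adjusted p = 0.00113) and 0.53 higher after withdrawal (SE 0.12, edgeR adjusted p = 0.00445).

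SPRY4 had the smallest p of the members in the mean with IL-1β, and the genes most like it across all 36 libraries were sought by Pearson's r of log2 CPM. These were EPHB2 (0.90), PLAUR (0.89), BID (0.89), ABTB2 (0.88) and IRAK2 (0.88). Over the 25 libraries of lower mitochondrial share the values were 0.97, 0.88, 0.91, 0.89 and 0.88. The points share the treatment, the time course and the sequencing of each library, and the genes were picked for these values.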

How the data were processed

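RNA of 36 A549 samples was sequenced from stranded mRNA libraries. The authors deposited, for each library, raw counts of reads per Ensembl gene. The submitters' processing notes name bcl2fastq 2.17, TopHat2 2.0.14, Bowtie2 2.2.5, HTSeq 0.6.1 and GRCh37, while the annotation release and the strand setting were not given in the sources used here. Summary lines for reads on no gene (8.48% to 18.6% of counted reads) and on several genes (2.62% to 4.18%) were left out.

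Counts were tested with edgeR 4.0.16 (R 4.3.3; TMM scaling, filterByExpr on the 12 groups, 1 quasi-likelihood fit of all 36 libraries with 24 residual degrees of freedom), with Benjamini-Hochberg adjustment over 19180 genes. Gene positions and exon lengths came from GENCODE 44 lifted to GRCh37, and promoters from RefSeq. The code was tested on simulated data. Intervals of summed counts cover counting error only. DESeq2 1.42.0, other scaling, no filter, a replicate block, a separate fit of each time point, the mitochondrial share and leaving out each replicate were alternatives, and those on the listed pathway genes, on the day 21 response and on the untreated cells were chosen after seeing the data. The members and gene lists were chosen with earlier results of these data known. The named genes of the lists were those called at a time point or in a mean response, or the most abundant in mean CPM where none was, and the 5 genes most like the member of the smallest p. Values of 1 gene named by this rule and of 1 marker are not reported here.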

Additional observations from a re-analysis of the deposited data

Results flagged for a closer look

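For 2 members and 4 named genes of the pathway lists, the mean response after withdrawal differed from that with IL-1β by the test of the difference itself (edgeR adjusted p under 0.05). SPRY4 differed by -1.18 on the log2 scale (edgeR adjusted p = 0.00569) and DUSP6 by -0.89 (edgeR adjusted p = 0.00629). IER3 differed by -1.13 (SE 0.25, edgeR adjusted p = 0.00721) and DUSP8 by -1.88 (SE 0.41, edgeR adjusted p = 0.00768). These 4, picked by this test, had lower responses after withdrawal. Of the 10 members, 8 were lower and 2 higher in sign, with a median of -0.29 beside 0.03 over all tested genes. The 2 higher were DUSP1 and DUSP5, both at 0.31 and neither with an edgeR adjusted p under 0.05. MAP2K6 differed by 0.93 (SE 0.19, edgeR adjusted p = 0.00332) and EPHA4 by 2.26 (SE 0.40, edgeR adjusted p = 0.000872), from -1.22 and -2.21 with IL-1β to -0.29 and 0.05 after it. IER3, DUSP8, MAP2K6 and EPHA4 were named because they were called with IL-1β, and none of them was called after withdrawal. That choice favours a smaller response after withdrawal, so their differences are not independent of it. Each of the 6 was lost without replicate 1, with an edgeR adjusted p of 0.26 for SPRY4, 0.303 for DUSP6, 0.428 for MAP2K6, 0.497 for IER3, 0.204 for DUSP8 and 0.144 for EPHA4. Without replicate 2 the edgeR adjusted p was 0.108 for DUSP6, 0.0505 for MAP2K6 and 0.0597 for DUSP8, and without replicate 3 it was 0.0944 for DUSP8.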

How the results depend on the processing

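Depth limits SPRY1, DUSP10, SPRY2, SPRY4 and DUSP6 most, as they were measured by 3 to 145 counts per library. The number of members called (1 at day 6, day 15, day 21 and day 30 after withdrawal, 0 at day 6 and day 15 after withdrawal) became 0 at day 15 and at day 30 after withdrawal in separate fits of each time point, 0 at day 21 with no filter on low counts, and 2 at day 15 and 1 at day 6 after withdrawal without the libraries of high mitochondrial share. With that share as a covariate it was 1 at day 6 after withdrawal (DUSP10), with or without the block. With adjusted p alone it was 5 instead of 1 in the mean with IL-1β, 3 instead of 0 in the mean after withdrawal and 2 instead of 1 in their difference, and the mean after withdrawal had 1 (DUSP10, 1.09, edgeR adjusted p = 0.00579) without the libraries of high mitochondrial share. Leaving out each replicate in turn gave 0 to 1 members at day 6 and day 15, 0 to 0 at day 21 and day 30 after withdrawal, 0 to 1 in the mean after withdrawal and in its difference from the mean with IL-1β, and 0 to 2 listed pathway genes, instead of 2, in the mean after withdrawal, where the fit without the libraries of high mitochondrial share had 1. Same-numbered libraries deviated together in 14 of 18 pairs (correlation of deviations over 0.1, range -0.34 to 0.72, mean 0.28). Of 36 libraries, 30 correlated best with their own number, so the numbers are a hint of pairing and not part of the design. Of the 11 libraries of high mitochondrial share, 8 were of replicate 2, so leaving out replicate 2 also left out most of them. The part of that share in these correlations was not tested. The replicate block made 1 call at day 15 after withdrawal, of DUSP5 (1.00, edgeR adjusted p = 0.042), and changed no other call of a member. Members near no difference changed sign, none of them called, and the cause was not tested. By DESeq2 the log2 fold changes were -0.0075 for SPRY4 at day 15 after withdrawal and -0.00054 for SPRED1 at day 15 after withdrawal. With DESeq2 size factors the log2 fold changes were -0.00086 for SPRY4 at day 15 after withdrawal and -0.00040 for SPRED1 at day 15 after withdrawal. With the mitochondrial share as a covariate the log2 fold changes were -0.039 for DUSP4 at day 15 after withdrawal, -0.097 for SPRY4 at day 15 after withdrawal, 0.0029 for SPRED2 at day 6 and -0.0059 for SPRED2 at day 21. With this covariate and the replicate block the log2 fold changes were -0.020 for DUSP4 at day 15 after withdrawal, 0.017 for SPRY1 at day 21, -0.067 for SPRY4 at day 15 after withdrawal, 0.016 for SPRED2 at day 6 and -0.019 for SPRED2 at day 21. Without the libraries of high mitochondrial share the log2 fold changes were 0.070 for DUSP1 at day 6, 0.14 for DUSP1 at day 15 after withdrawal, -0.067 for DUSP1 at day 30 after withdrawal, -0.16 for DUSP4 at day 15 after withdrawal, -0.024 for DUSP4 in the mean after withdrawal, 0.22 for DUSP10 in the difference of the means, -0.12 for SPRY1 at day 30 after withdrawal, -0.082 for SPRY2 at day 30 after withdrawal, -0.051 for SPRY2 in the mean after withdrawal, -0.23 for SPRY4 at day 15 after withdrawal, -0.032 for SPRED1 at day 15 after withdrawal, 0.064 for SPRED2 at day 6 and -0.052 for SPRED2 at day 21. Leaving out each replicate gave -0.20 to 0.030 for DUSP1 at day 15 after withdrawal, -0.078 to 0.31 for DUSP1 at day 30 after withdrawal, -0.089 to 0.010 for DUSP1 in the mean after withdrawal, -0.058 to 0.11 for DUSP4 at day 15 after withdrawal, -0.14 to 0.076 for DUSP10 at day 30 after withdrawal, -0.51 to 0.12 for SPRY1 at day 6, -0.20 to 0.20 for SPRY1 at day 21, -0.14 to 0.29 for SPRY1 at day 30 after withdrawal, -0.19 to 0.59 for SPRY2 at day 6 after withdrawal, -0.13 to 0.070 for SPRY2 at day 15 after withdrawal, -0.097 to 0.29 for SPRY2 at day 30 after withdrawal, -0.010 to 0.20 for SPRY2 in the mean after withdrawal, -0.20 to 0.56 for SPRY4 at day 6 after withdrawal, -0.35 to 0.24 for SPRY4 at day 15 after withdrawal, -0.19 to 0.14 for SPRED1 at day 15 after withdrawal, -0.029 to 0.064 for SPRED1 in the mean after withdrawal, -0.12 to 0.073 for SPRED2 at day 6 and -0.061 to 0.16 for SPRED2 at day 21.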

Other observations

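In untreated cells the 10 members were all lower in sign at the last collection than at the first. They were read in the same 3 libraries a group, so their signs are not independent. Comparing control cells collected at day 30 after withdrawal with those of day 6, the median log2 fold change of the members was -0.27, beside 0.01 over all tested genes. It was -0.09 for the kinases from RAS to ERK (7 of 10 lower in sign) and -0.16 for the transcripts read as ERK output (9 of 10 lower). For the other 3 lists it was -0.14 (other phosphatases, Sprouty and SPRED genes, 4 of 6 lower), 0.01 (JNK and p38 branch, 6 of 12 lower) and -0.08 (partners, 5 of 8 lower). SPRY1 had the largest difference (-0.72, SE 0.39) and SPRED1 the smallest (-0.05, SE 0.17). No member was called (edgeR adjusted p of 1 throughout, 0 at an unadjusted p under 0.05, 0 by DESeq2), and 0.0104% of all genes were. The control libraries of replicate 2, at 20.03% mitochondrial counts on day 6 and 23.2% on the last day, stand in both groups.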
